A study of Mus musculus with 4 samples.

Results

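The enzymes of the pentose phosphate pathway and 2 further cytosolic enzymes that make NADPH were followed in mouse bone marrow-derived macrophages given morpholinos against Regnase-1 (Reg1-MOs) or a control morpholino (Ctrl MO). The 9 genes were chosen by symbol, and all 9 are among the 11111 genes of the deposited table. They are G6pdx, Pgls and Pgd of the oxidative branch, Rpia, Rpe, Tkt and Taldo1 of the non-oxidative branch, and Me1 and Idh1, which make NADPH outside the pathway.

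Macrophages were grown from the marrow of wild-type C57BL/6 mice for 7 days, with the medium changed on day 4. Both groups, Reg1-MOs and Ctrl MO, received their morpholino at 2 µM with the delivery peptide Endoporter at 6 µl/ml for 24 hours and then lipopolysaccharide (LPS), a bacterial cell wall component, at 10 ng/ml for 4 hours. Each group has 2 libraries of poly(A) RNA, and no library of unstimulated cells was used here. Whether the replicates are separate mice, cultures or wells is not stated, so the p-values speak only of how these libraries varied, possibly for technical reasons.

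Morpholinos are synthetic antisense oligomers that bind an RNA without recruiting RNase H, and Regnase-1, encoded by Zc3h12a, is an endoribonuclease that degrades the mRNAs of inflammatory cytokines. Zc3h12a itself had 7799 and 6753 reads in the Reg1-MOs libraries, against 3407 and 3572 in the Ctrl MO libraries. Its log2 fold change was 1.10 with an SE of 0.07 (limma adjusted p = 0.000401). The targeted transcript was therefore higher in both Reg1-MOs libraries. The labels do not give the direction in which the morpholinos act on the protein, and transcript reads do not measure it.

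The pentose phosphate pathway takes glucose 6-phosphate off glycolysis. Its oxidative branch makes NADPH and ribulose 5-phosphate, and its non-oxidative branch interconverts sugar phosphates, giving ribose 5-phosphate for nucleotides or returning carbon to glycolysis. In macrophages NADPH feeds the NADPH oxidase, nitric oxide synthase, the glutathione and thioredoxin reductases and fatty acid synthesis, and malic enzyme 1 and cytosolic isocitrate dehydrogenase supply NADPH from malate and isocitrate.

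Of the 9 genes, 4 rose in Reg1-MOs cells and 0 fell (limma on all 11111 genes, adjusted p under the 0.05 threshold). Me1 rose most, and Pgd, Taldo1 and Tkt rose by less. G6pdx, Pgls, Rpia, Rpe and Idh1 did not pass the test. At an unadjusted p under 0.05, 5 of the 9 were higher and 0 lower, where 13.6% of all genes were higher and 15.7% lower. Among all 11111 genes, 691 or 6.22% rose and 670 or 6.03% fell, which makes 12.2% called in either direction. The median log2 fold change was 0.23 over the 9 genes and -0.03 over all genes.

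Together the 9 genes held 37377 and 30871 reads in the Reg1-MOs libraries, against 25926 and 25285 in the Ctrl MO libraries. That was 0.152% and 0.132% of the reads in the table in Reg1-MOs cells and 0.104% and 0.1003% in Ctrl MO cells. In 8 of the 9 genes the values of the 2 groups did not overlap, against 58.9% of all genes, and in 7 of the 9 both Reg1-MOs libraries lay above both Ctrl MO libraries, against 27.1% of all genes. Reg1-MOs replicate 1 lay above replicate 2 in 7 of the 9. Over genes averaging 50 reads or more, the median absolute log2 gap between replicates was 0.134 in Reg1-MOs and 0.0806 in Ctrl MO. In the same libraries all 13 stromal and fibroblast markers in the table fell in Reg1-MOs (limma), with a summed linear value of 116 and 130.9 in Reg1-MOs, against 287 and 292 in Ctrl MO. In bulk RNA fewer cells of a type and less RNA per cell cannot be told apart, and the part of stromal RNA in the values of the 9 genes was not tested.

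**Figure D1:**
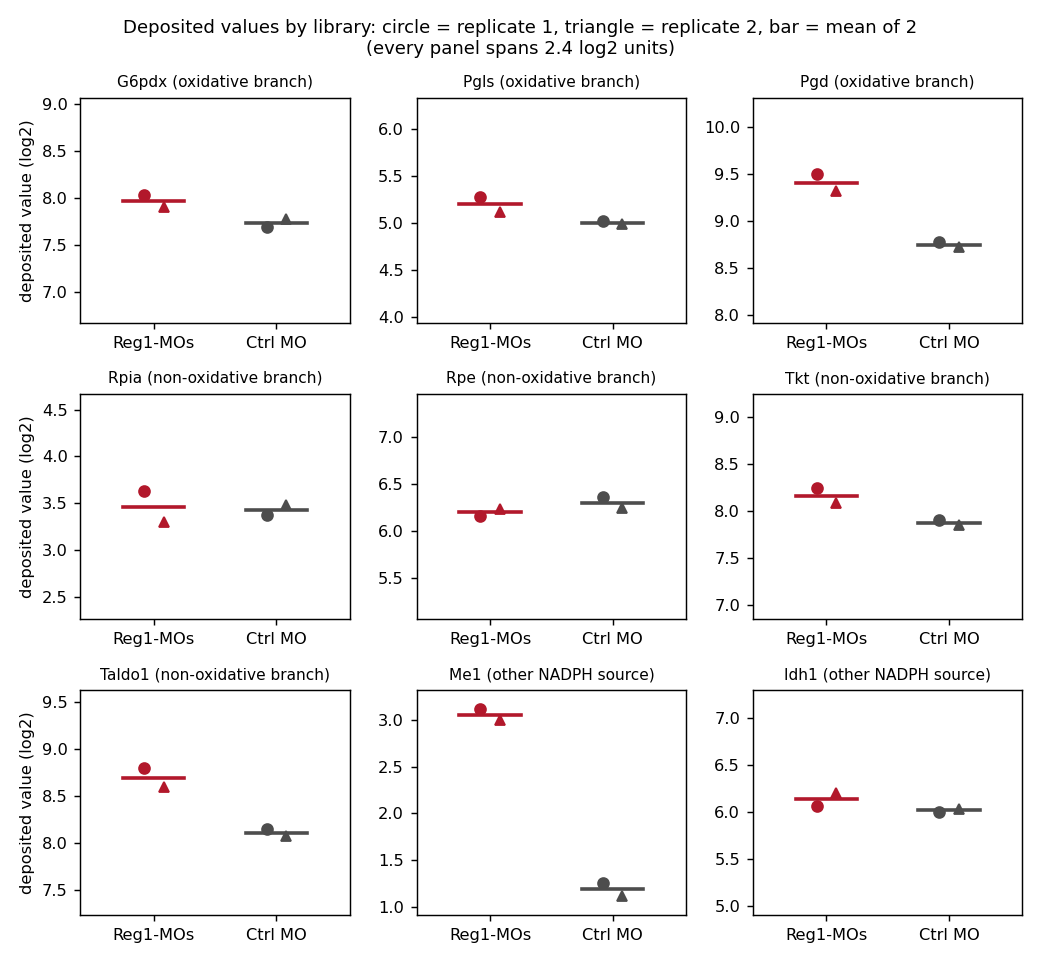
Deposited log2 value of each of the 9 genes in each library, with Reg1-MOs left of Ctrl MO and 1 point per library. Me1 shows the widest gap between groups, Pgd and Taldo1 a smaller one, and only in Rpia do the groups overlap.

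G6pdx encodes glucose-6-phosphate dehydrogenase, the entry and rate-limiting enzyme of the pathway. It had 5089 and 4246 reads in Reg1-MOs, against 3955 and 4175 in Ctrl MO, with deposited log2 values of 8.04 and 7.90 against 7.70 and 7.78. Both Reg1-MOs values were the higher ones, and the replicate gap within Reg1-MOs was larger than the distance from its lower library to the higher Ctrl MO library. The log2 fold change was 0.23 (95% interval 0.06 to 0.41), which did not pass the test (limma adjusted p = 0.0835). The gene lies at chrX:74409483-74429194 (GRCm38, minus strand), and 418 of its exon bases, 13.6%, are also exon of Ikbkg on the opposite strand. Ikbkg, the NEMO subunit of the IκB kinase, had 1872 and 1753 reads in Reg1-MOs, against 1220 and 1295 in Ctrl MO, and rose by 0.57 on the log2 scale (SE 0.07, adjusted p = 0.0039 by limma, and 0.0517 without the mean-variance trend). The kit keeps strand but the counting setting is not given, so reads in the shared bases cannot be told apart.

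Pgls encodes 6-phosphogluconolactonase, which hydrolyses the lactone that glucose-6-phosphate dehydrogenase makes. Its log2 values were 5.28 and 5.12 in Reg1-MOs, against 5.02 and 4.99 in Ctrl MO. The groups did not overlap, but the log2 fold change of 0.19 (95% interval -0.02 to 0.41) did not pass the test (limma adjusted p = 0.201). Of its exon bases at chr8:71592176-71601092, 20.6% are also exon of the neighbouring Fam129c, listed in the table as Niban3 with 22 to 36 reads per library.

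Pgd encodes 6-phosphogluconate dehydrogenase, the second NADPH-producing step, and lies at chr4:149149991-149166771 on the minus strand. It had 13982 and 11333 reads in Reg1-MOs, against 8342 and 8038 in Ctrl MO. Its log2 values were 9.50 and 9.32 in Reg1-MOs and 8.77 and 8.72 in Ctrl MO, so both Reg1-MOs libraries stood well above both controls. Pgd rose 1.58-fold, a log2 fold change of 0.66 (SE 0.08, 95% interval 0.48 to 0.84, limma adjusted p = 0.00272). The call ended only when limma was fitted without its mean-variance trend (adjusted p = 0.0557).

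The pentose phosphate isomerases showed no call. Rpia, ribose-5-phosphate isomerase, had 240 and 174 reads in Reg1-MOs, against 197 and 213 in Ctrl MO. The Reg1-MOs libraries were the highest and the lowest of the 4, and the log2 fold change was 0.04 (95% interval -0.30 to 0.37, limma adjusted p = 0.893). Rpe, ribulose-5-phosphate 3-epimerase, was the only one of the 9 genes with a negative log2 fold change, at -0.10 (95% interval -0.29 to 0.08, limma adjusted p = 0.429). It had 1386 and 1344 reads in Reg1-MOs, against 1572 and 1444 in Ctrl MO. On the deposited log2 scale its higher Reg1-MOs value and its lower Ctrl MO value almost touched, at 6.242 against 6.244. Of the Rpe exon bases 17.9% are also exon of Kansl1l on the opposite strand, and stretches of the Rpia transcript match many other transcripts, so both genes' reads are less certain.

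Transketolase (Tkt) and transaldolase (Taldo1) move carbon units between sugar phosphates and connect the pathway back to glycolysis. Taldo1, at chr7:141392199-141402968, had 8609 and 6892 reads in Reg1-MOs, against 5428 and 5116 in Ctrl MO, and log2 values of 8.80 and 8.60 against 8.15 and 8.07. Both Reg1-MOs libraries were higher than both controls by more than either group's replicate gap. Taldo1 rose 1.502-fold, a log2 fold change of 0.59 (SE 0.08, 95% interval 0.40 to 0.78, limma adjusted p = 0.00517), and this call too ended only without the mean-variance trend (adjusted p = 0.0695).

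Tkt, at chr14:30548359-30574720, had 5853 and 4812 reads in Reg1-MOs, against 4548 and 4404 in Ctrl MO. Its log2 values were 8.24 and 8.08 in Reg1-MOs and 7.90 and 7.85 in Ctrl MO, so the groups did not overlap. Tkt rose 1.22-fold, a log2 fold change of 0.29 (SE 0.07, 95% interval 0.11 to 0.46), with a limma adjusted p of 0.0488, close to the threshold. Leaving out Ctrl MO replicate 1 ended the call (limma adjusted p = 0.2), as did leaving out Ctrl MO replicate 2 (0.341) or Reg1-MOs replicate 1 (0.113, with a log2 fold change of 0.21). It was also lost with quantile normalization, on genes averaging 50 reads or more, with voom weights and without the trend, at adjusted p between 0.0503 and 0.169.

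Me1 encodes cytosolic malic enzyme, which turns malate into pyruvate and makes NADPH, and lies at chr9:86581371-86695953 on the minus strand. It had 167 and 141 reads in Reg1-MOs, against 45 and 41 in Ctrl MO. Its log2 values were 3.11 and 2.99 in Reg1-MOs and 1.25 and 1.12 in Ctrl MO, so the groups were far apart and the replicates close together. Me1 rose 3.64-fold (95% interval 2.84 to 4.67), or 1.86 on the log2 scale (SE 0.15, adjusted p = 0.00108 by limma), and ranked 23rd of the 11111 genes from the highest. It stayed past the threshold in all 11 alternative settings, with log2 fold changes of 1.70 to 1.93. Near-identical copies of Me1 exist elsewhere in the genome, such as the processed pseudogene Gm7049, which matches the transcript at 98.4% over 1716 bases and is not in the table, so reads could have been split or dropped in counting.

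Idh1 encodes the cytosolic isocitrate dehydrogenase, which makes NADPH from isocitrate. It had 1301 and 1312 reads in Reg1-MOs, against 1221 and 1250 in Ctrl MO, and log2 values of 6.07 and 6.21 against 6.00 and 6.04. The Reg1-MOs values were higher by little, and the log2 fold change of 0.12 (95% interval -0.07 to 0.31) did not pass the test (limma adjusted p = 0.362). Idh1 and Rpe lie on the same chromosome 1514330 bases apart, and the 9 genes lie on 8 chromosomes in all.

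**Figure D2:**
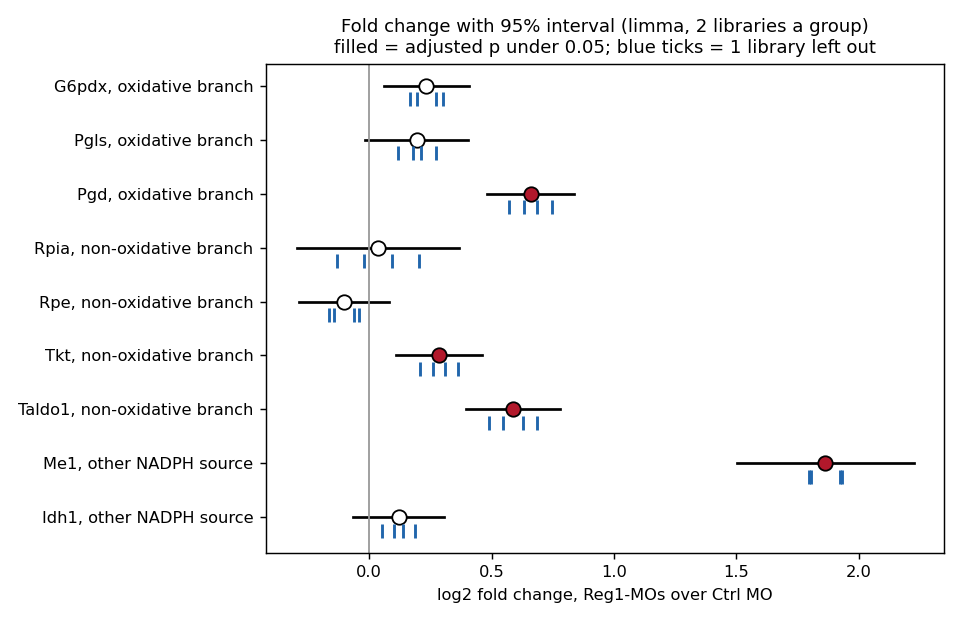
Log2 fold change, Reg1-MOs over Ctrl MO, of each of the 9 genes with its 95% interval from limma, filled where the adjusted p is under 0.05. Me1 stands at 1.86, Pgd at 0.66, Taldo1 at 0.59 and Tkt at 0.29, and the intervals of Pgls, Rpia, Rpe and Idh1 include 0.

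Ratios between genes within a library do not depend on how libraries were scaled. Pgd had 2.75 and 2.67 reads per G6pdx read in Reg1-MOs, against 2.11 and 1.93 in Ctrl MO, and Taldo1 1.69 and 1.62 against 1.37 and 1.23. Me1 had 0.0328 and 0.0332 reads per G6pdx read in Reg1-MOs, against 0.0114 and 0.00982 in Ctrl MO. For these 3 genes the groups did not overlap and the ratio was higher in Reg1-MOs. Tkt had 1.15 and 1.13 reads per G6pdx read in Reg1-MOs, against 1.15 and 1.05 in Ctrl MO, and here the groups overlapped. Rpe had 0.272 and 0.317 reads per G6pdx read in Reg1-MOs, against 0.397 and 0.346 in Ctrl MO, so its ratio was lower. The ratio of Rpia was lower too, at 0.0472 and 0.0410 against 0.0498 and 0.0510, also without overlap. For Pgls and Idh1 the groups overlapped. All these ratios carry the uncertainty of G6pdx reads in bases shared with Ikbkg. These ratios are a description and were not tested.

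Summed on the linear deposited scale, the 3 oxidative genes came to 1023 and 912 in Reg1-MOs, against 677 and 673 in Ctrl MO. The 4 non-oxidative genes came to 830 and 744 in Reg1-MOs, against 616 and 587 in Ctrl MO. Me1 and Idh1 came to 75.8 and 81.8 in Reg1-MOs, against 66.4 and 67.8 in Ctrl MO. The sum was higher in Reg1-MOs for all 3 sets, with no overlap between groups. Such a sum is not scaled by length and is weighted to the genes with most reads, so it does not describe every gene of a set. Pgd was called in the oxidative set, and G6pdx and Pgls were not. Tkt and Taldo1 were called in the non-oxidative set, and Rpia and Rpe were not, with Rpe at -0.10. In the last set Me1 was called and Idh1, which had more reads, was not.

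Levels can be compared between genes only per length, for which RPKM was computed here (reads per kilobase of annotated exon, scaled to the reads in the table). Taldo1 had the highest mean level per length, at an RPKM of 148 in Reg1-MOs and 96.9 in Ctrl MO. In Reg1-MOs it was followed by Pgd at 81.6, G6pdx at 63.0 and Tkt at 30.1. In Ctrl MO the same genes stood at 50.7, 52.7 and 24.3, and the ranges of G6pdx and Pgd there overlapped, so their order is not resolved. Idh1 and Rpe were lower, Pgls lower again at 7.54 in Reg1-MOs and 6.47 in Ctrl MO. Me1 and Rpia were the least abundant of the 9. Me1 stood at 1.66 in Reg1-MOs and 0.446 in Ctrl MO, and Rpia at 1.603 and 1.53, so their ranges overlapped in Reg1-MOs but not in Ctrl MO. The largest change thus belonged to a gene of low level, and the higher-level genes Pgd and Taldo1 added more reads.

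**Figure D3:**
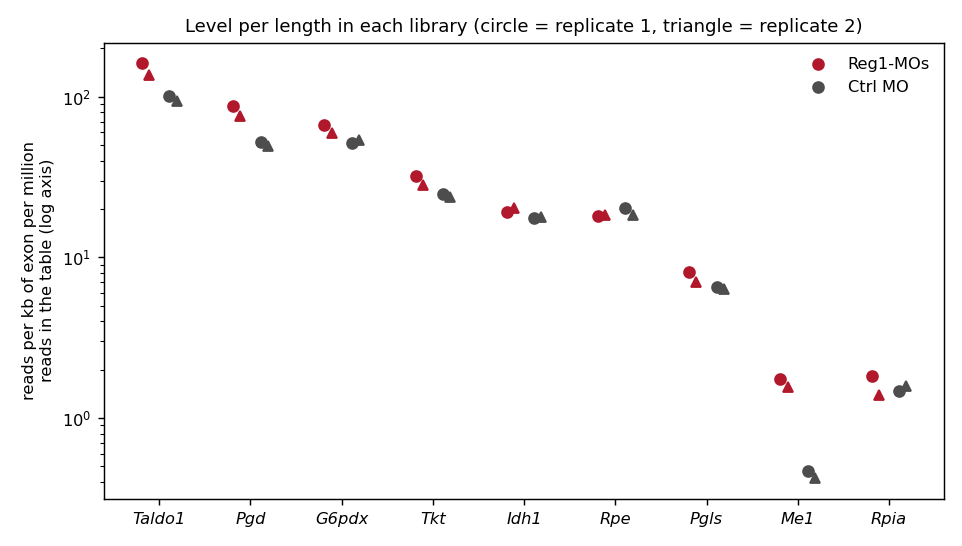
RPKM over annotated exons, scaled to the reads in the table, on a log axis, for each gene and library, with Reg1-MOs left of Ctrl MO. Taldo1, Pgd, G6pdx and Tkt lie highest in both groups, and Me1 in Ctrl MO lies lowest of all.

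Promoter windows from RefSeq (GRCm38.p6, 250 bases before to 50 after each start) were searched on both strands, because Pgd, Taldo1, Tkt, G6pdx and Me1 are textbook targets of the factor NRF2, which binds antioxidant response elements. The core searched was TGACNNNGC, found in 12.4% of 32851 windows and in a window of 3781 of 27025 genes. The E-box CACGTG (7.15% of windows) was in no window of the 9 genes, and the AP-1 site TGAGTCA (5.2% of windows) was in 1. The core was in windows of 3 of the 9 genes: Me1, G6pdx and the second start of Pgd. Printed 5′ to 3′ on the gene's strand are 120 bases before and 20 after the start, with any core in capitals, for the 4 genes that rose and for G6pdx:
Me1, first start, chr9:86695895-86696034, minus strand: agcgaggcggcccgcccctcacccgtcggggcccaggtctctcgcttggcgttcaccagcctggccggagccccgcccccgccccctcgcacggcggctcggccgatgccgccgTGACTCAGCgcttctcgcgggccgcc
G6pdx, chrX:74428861-74429000, minus strand: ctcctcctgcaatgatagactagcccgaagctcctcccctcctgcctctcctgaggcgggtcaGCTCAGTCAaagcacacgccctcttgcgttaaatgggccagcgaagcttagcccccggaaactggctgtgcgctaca
Pgd, first start, chr4:149166686-149166825, minus strand: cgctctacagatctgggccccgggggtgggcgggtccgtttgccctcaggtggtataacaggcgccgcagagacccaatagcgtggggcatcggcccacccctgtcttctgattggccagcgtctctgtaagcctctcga
Taldo1, chr7:141392040-141392179, plus strand: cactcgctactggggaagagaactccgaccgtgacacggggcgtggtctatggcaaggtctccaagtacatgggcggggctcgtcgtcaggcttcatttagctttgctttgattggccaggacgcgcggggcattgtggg
Tkt, chr14:30549011-30549150, plus strand: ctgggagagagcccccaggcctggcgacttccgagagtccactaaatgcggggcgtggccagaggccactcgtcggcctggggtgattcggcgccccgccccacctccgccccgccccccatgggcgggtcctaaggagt

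In Me1 the core TGACTCAGC begins 6 bases before the start, and its first 7 bases are also the AP-1 match, read on the opposite strand. In G6pdx the core begins 57 bases before the start and is read on the opposite strand, as GCTCAGTCA on the printed one. These distances are counted from the RefSeq start, and both cores lie inside the span of the GENCODE gene. The core of the second Pgd start lies inside transcribed sequence, and none lies in the windows of Taldo1, Tkt and the first Pgd start. For all genes printed above, the RefSeq start differs from where the GENCODE gene begins. The Taldo1 start lies before the GENCODE gene, which begins at 141392199. The starts of Me1 and Pgd lie inside their GENCODE genes, which begin at 86695953 and 149166771 on the minus strand. The GENCODE gene of Tkt begins at 30548359, before its only window, which begins at 30548881. That of G6pdx begins on the minus strand at 74429194, before its only window, which begins at 74429130. Sequence around these 2 GENCODE starts was thus not searched. Of the 4 genes that rose, 2 therefore hold the core in a window, and of the 5 that did not pass, 1. A match says only that these letters are there, and binding was not measured.

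Genes next to the pathway were read against the 12.2% of all genes called in either direction. Of 14 genes of ribose phosphate and pentose metabolism 11 were in the table, and none rose or fell (limma; 1 higher and 0 lower at an unadjusted p under 0.05), with a median log2 fold change of 0.10. The nearest to a call were Pgm2, a phosphopentose mutase, at 0.32 (adjusted p = 0.165), Prps1, which makes phosphoribosyl pyrophosphate, at 0.32 (0.199), and Dera, a deoxyribose phosphate aldolase, at 0.20 (0.252). Of 13 other sources of NADPH and NADP 11 were in the table, of which 0 rose and 1 fell (limma; 2 higher and 1 lower unadjusted). The one that fell was Nnt, the mitochondrial transhydrogenase, at -0.51 (SE 0.10, limma adjusted p = 0.0221), and it was not past the threshold without any 1 of the 4 libraries, at adjusted p between 0.0531 and 0.13. Nnt also did not pass without the variance trend (limma adjusted p = 0.0682). Me2, the mitochondrial malic enzyme, stood at 0.38 (0.0526) and Nadk, the cytosolic NAD kinase, at 0.20 (0.0777).

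Of 15 genes that handle malate, the substrate of malic enzyme, or citrate, 1 rose and 1 fell, with a median of 0.12. Got1, the cytosolic aspartate aminotransferase, rose by 0.52 on the log2 scale (SE 0.09, adjusted p = 0.0132 by limma), and Acly, which splits citrate to acetyl-CoA, fell by 0.31 (SE 0.08, adjusted p = 0.0369). Both calls were lost without Ctrl MO replicate 1 (0.0606 for Got1 and 0.162 for Acly) and without Reg1-MOs replicate 1 (0.0738 and 0.0982), and that of Acly also without Ctrl MO replicate 2 (0.29). Without the variance trend neither Got1 nor Acly passed (limma adjusted p = 0.0604 and 0.138). Idh3b stood at 0.26 and did not pass.

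The genes of the NRF2 pathway were set beside the 9 genes because several of these are among its known targets. Of 7 regulators none rose or fell (limma; 2 higher and 0 lower unadjusted), and the median was 0.14, with Mafk at 0.23 (adjusted p = 0.0611), Nfe2l1 at 0.17 (0.137) and Nfe2l2, which encodes NRF2, at 0.14 (0.176). Of 12 known NRF2 targets outside the 9 genes, 10 rose and 0 fell, with a median of 0.80. Hmox1, the haem oxygenase, had 32264 and 24808 reads in Reg1-MOs, against 1779 and 1825 in Ctrl MO, and rose by 4.01 on the log2 scale (SE 0.09, adjusted p = 2.67e-06 by limma). Sqstm1, an autophagy adaptor, rose by 1.45 and Txnrd1, a thioredoxin reductase that uses NADPH, by 0.85. This list was chosen with results of these libraries known and is not independent evidence of its direction.

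By Euclidean distance of centred log2 values over the 4 libraries, the genes averaging 50 reads or more that lay nearest to Me1 were Adra1a, Cxcl1, Npy, Serpinb9b and Sqstm1, at distances of 0.335 to 0.422. Their log2 fold changes were 1.78, 1.54, 1.48, 1.67 and 1.45. With 4 libraries in 2 groups, this likeness is mainly a like fold change.

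Other marker lists were read the same way. The stromal list holds 16 genes, of which Lum, Pdgfra and Thy1 were not in the table; the 13 that fell had a median log2 fold change of -1.49, and Bgn, Col1a1 and Col1a2 had the smallest p. For 10 macrophage markers the summed linear value was 19320 and 19226 in Reg1-MOs, against 21166 and 21065 in Ctrl MO; 1 rose (Cd68) and 2 fell (Itgam and Lyz2). The Cd68 call was lost without Ctrl MO replicate 1, Ctrl MO replicate 2 or Reg1-MOs replicate 1, at limma adjusted p between 0.0796 and 0.21, and the Lyz2 call without any 1 library, at 0.0532 to 0.355. Without the variance trend no macrophage marker and no cell cycle gene was called. Of 9 neutrophil markers in the table none was called (0 higher and 3 lower unadjusted), with Csf3r at -0.25, Ltf at -0.37 and S100a8 at -0.31. Of 12 cell cycle genes 1 fell, Top2a at -0.70 (limma adjusted p = 0.0857 without Reg1-MOs replicate 1), with Rrm2 at -0.75 and Mki67 at -0.26 not called. Of the lymphocyte, dendritic, erythroid and mast cell lists 1 marker each was in the table, and of these Kit fell, a call lost without any 1 library.

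**Figure D4:**
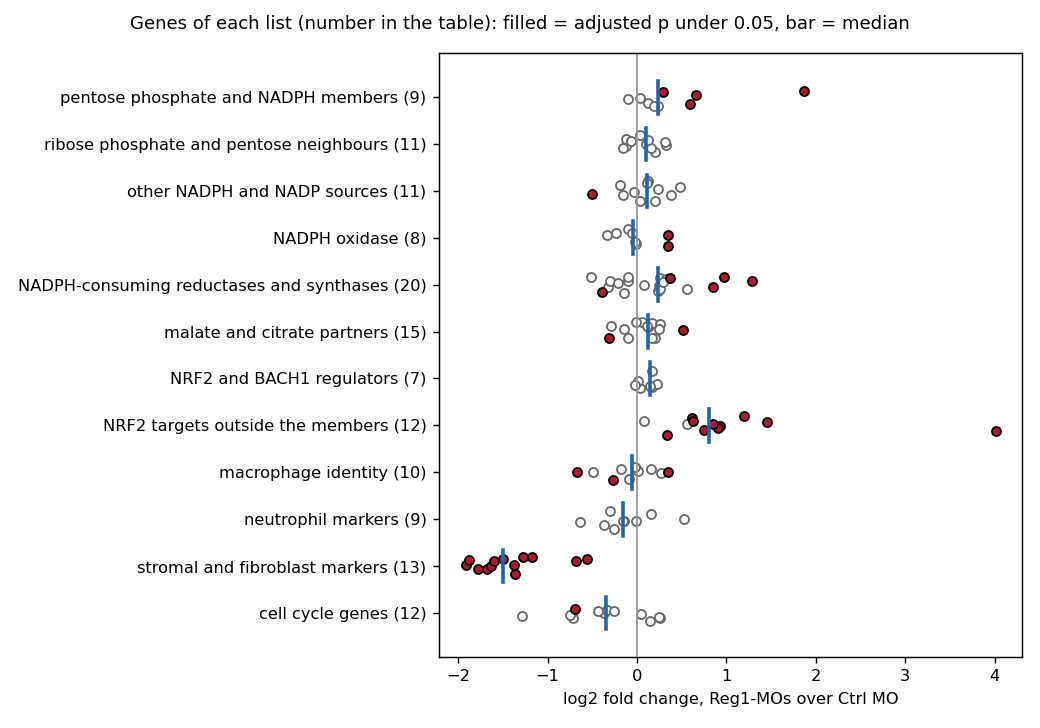
Log2 fold change, Reg1-MOs over Ctrl MO, of the genes of each list, 1 point per gene, filled where the limma adjusted p is under 0.05, with a bar at the list's median. The 9 enzyme genes have a median of 0.23, the NRF2 targets outside them 0.80 and the stromal markers -1.49.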

How the data were processed

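RNA sequencing measured 4 libraries, 2 per group, grouped and numbered by their titles. Poly(A) libraries were directional (NEBNext Ultra II) and sequenced on an Illumina NextSeq 500, as the labels' protocols state. Cutadapt, FastQC, HISAT2 1.6.3 and mm10 were used, per the submitters' processing notes. How reads were assigned to genes, filtered and normalized, and with which strand setting, is not given in the sources used here.

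For 11111 genes, log2 values were deposited in 1 table. Taken out of log2 and divided by the smallest step of its library, the deposited values were whole numbers plus 0.5, to a tolerance of 0.01, in 100% of cases, so the reads per gene could be recovered. They summed to 24652918 and 23369753 in Reg1-MOs and 24904180 and 25213695 in Ctrl MO. MO1 and MO2 are both the column headings of Reg1-MOs and the names of the targeting morpholinos, and the labels leave unclear whether a library received 1 or both; the libraries were treated as replicates, as titled.

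All genes were tested with limma 3.58.1 in R 4.3.3, on the deposited log2 values with a mean-variance trend and group as the only term, two-sided, with Benjamini-Hochberg adjustment and a threshold of 0.05. With 2 residual degrees of freedom and 5.47 from limma's prior, intervals are 95%. The 11 alternatives were quantile normalization, equal totals, an offset of 8 reads, genes averaging 50 reads or more, no variance trend, voom weights, the replicate number as a block, and leaving out each library. Positions and exon lengths are from GENCODE M21 on GRCm38, similar transcripts from BLAST 2.17.0 (at least 95% identity over 75 bases) and promoters from RefSeq GRCm38.p6. The text names the 9 genes, Zc3h12a, the 3 genes with the smallest p of each list with at least 4 genes in the table and the 5 genes nearest to Me1; Hmox1 and genes that overlap a member are named beside them. Some genes counted in the lists are not reported here by name. Members and lists were chosen with earlier results of these data known.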

Additional observations from a re-analysis of the deposited data

How the results depend on the processing

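Counts of calls moved with the test and with single libraries. Against 691 genes higher and 670 lower, limma without the variance trend called 195 and 182, and with a replicate block 1532 and 1891. Leaving out 1 library gave 249 to 530 higher and 258 to 860 lower. The cause of these shifts was not tested. Of the 9 enzyme genes, 4 were higher: only 1, Me1, without the variance trend, and 3 to 5 under the other alternatives, with 0 lower throughout. With the replicate block 5 were higher, G6pdx being added (limma adjusted p = 0.00279). The labels give no reason to pair libraries of the same number. Over 2 pairs, their deviations correlated across genes at 0.0958 over all genes and 0.314 over genes averaging 50 reads or more. Rpia changed sign, without Ctrl MO replicate 1 and without Reg1-MOs replicate 1, and spanned -0.13 to 0.20 when 1 library was left out. Leaving out 1 library lost the 2 calls in the NADPH oxidase list without Ctrl MO replicate 1, Ctrl MO replicate 2 or Reg1-MOs replicate 1. The scaling moved the median log2 fold change of all genes little: -0.03 as deposited, -0.01 with quantile normalization. Me1 had only 41 to 45 reads in Ctrl MO, and the offset of 8 reads lowered its log2 fold change to 1.70.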

Other observations

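Genes that use NADPH were looked at apart from those that make it. Of 20 NADPH-consuming reductases and synthases, 4 rose and 1 fell in Reg1-MOs (limma, 11111 genes), with a median log2 fold change of 0.24. Of all genes, 6.22% rose and 6.03% fell. The largest rise was that of Akr1b8, an aldo-keto reductase, by 1.29 (SE 0.10, limma adjusted p = 0.000722). Por, which passes electrons from NADPH to cytochrome P450 enzymes, rose by 0.98 (SE 0.07), and Txnrd1 and Akr1b3, the aldose reductase, rose by 0.85 and 0.37. Nos2, the inducible nitric oxide synthase, stood at -0.30 (adjusted p = 0.0549), Fasn, fatty acid synthase, at -0.33 (0.0627) and Gsr, glutathione reductase, at 0.08 (0.463), none of them past the threshold. Akr1b3, Nos2, Fasn and Gsr were chosen after their values were seen, and 0 genes of the list were lower without Ctrl MO replicate 1 or without Reg1-MOs replicate 1. In place of 4, 3 genes of the list were higher when Ctrl MO replicate 2, Reg1-MOs replicate 1 or the variance trend was left out.

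Of 8 subunits and partners of the phagocyte NADPH oxidase, 2 rose and 0 fell (limma), with a median of -0.04. Among all genes 6.22% rose and 6.03% fell. At an unadjusted p under 0.05, 2 of the 8 were higher and 2 lower. Without the variance trend 0 rose and 0 fell, and on genes averaging 50 reads or more 1 rose. With quantile normalization, equal totals or voom weights 2 rose and 1 fell. Cyba, a membrane subunit, rose by 0.34 (SE 0.09, limma adjusted p = 0.0468). Cybb, the catalytic subunit, had 74349 and 81708 reads in Reg1-MOs, against 98571 and 104254 in Ctrl MO, a log2 fold change of -0.34 that did not pass the test (adjusted p = 0.0559). Cyba was not called without Ctrl MO replicate 1, Ctrl MO replicate 2 or Reg1-MOs replicate 1, at adjusted p between 0.0741 and 0.255, and 0 genes of the list were higher in these settings.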
